A study of Mus musculus with 11 samples.

Results

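The genes described here are 9 enzymes that bring pyruvate into the citric acid cycle or run steps of it: Pdha1, Dlat, Pc, Cs, Idh3a, Idh3b, Ogdh, Mdh1 and Mdh2. They were chosen by name, and all 9 were found among the 4338 genes of a table of ribosome footprints from mouse cortex. Pc carries its other symbol, Pcx, in the GENCODE vM21 annotation that gave the transcripts their gene names. Each of the 11 libraries holds pieces of messenger RNA that a ribosome covered and so shielded from nuclease, taken from monosomes pulled down by way of the ribosomal protein P0. Every animal was a wild-type C57BL6 mouse of 7 to 8 weeks. The ipsilateral group (4 libraries, replicates 2, 4, 5 and 6) is cortex of the hemisphere in which the right middle cerebral artery was blocked with a filament for 35 min while the common carotid artery was tied, taken after 3 h of reperfusion. The contralateral group (4 libraries, replicates 1, 4, 5 and 6) is cortex of the opposite hemisphere at the same time after the same surgery. The sham group (3 libraries, replicates 1, 2 and 5) had the anaesthesia and exposed arteries without a filament, and the side of the cortex is not stated. The replicate number names the day of surgery. Titles and descriptions place 4 libraries in the ipsilateral group, whereas their tissue entry names the contralateral hemisphere; the titles were followed here. No measurement of total RNA was used, so a footprint level joins how much transcript there is with how often it is translated.

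The pyruvate dehydrogenase complex turns pyruvate, the end product of glycolysis, into acetyl-CoA, and pyruvate carboxylase turns it into oxaloacetate. Citrate synthase joins these products, and the cycle then oxidises citrate by way of isocitrate, 2-oxoglutarate, succinate, fumarate and malate, passing electrons to the respiratory chain. In brain the cycle also supplies 2-oxoglutarate for glutamate and GABA, and the malate dehydrogenases of cytosol and mitochondrion carry reducing equivalents inward through the malate-aspartate shuttle. Of the 9 genes, Mdh1 encodes the cytosolic enzyme, and the products of the other 8 work in the mitochondrial matrix.

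Library totals, with 1 transcript counted per gene, ran from 35066 to 137340 in ipsilateral, 137370 to 571352 in contralateral and 64461 to 256655 in sham libraries, so the ipsilateral libraries were the shallowest group. The cortex label was checked against markers. All 6 markers of cortical excitatory neurons were measured, with summed levels of 2834 to 4189 CPM in ipsilateral, 3259 to 4829 in contralateral and 3552 to 4625 in sham libraries (CPM, counts scaled to a common library total). Of 7 oligodendrocyte markers 6 were measured, at 2536 to 5736 CPM in ipsilateral, 1965 to 2687 in contralateral and 1917 to 2516 in sham libraries. Of 7 microglial markers 6 were measured, at 857 to 1201 CPM in ipsilateral, 628.5 to 850 in contralateral and 453 to 745 in sham libraries. The 7 astrocyte markers summed to 7531 to 8800 CPM in ipsilateral, 7918 to 11420 in contralateral and 6391 to 8977 in sham libraries. Oligodendrocyte and microglial sums thus lay above sham in every ipsilateral library. Microglial sums also lay above every contralateral library, whereas oligodendrocyte sums overlapped there. The part of cell makeup in the results below was not tested. Of 7 blood markers 4 were measured, at 1038 to 2037 CPM in ipsilateral, 567 to 998.5 in contralateral and 891 to 1320 in sham libraries. Blood sums thus lay above contralateral in every ipsilateral library and overlapped with sham, and their part was not tested either. Cldn5, Pecam1, Flt1, Pdgfrb and Kcnj8, markers of endothelial and mural cells, had no row in the table, nor did Drd1, Drd2, Adora2a, Rgs9 and Pde10a of 7 striatal markers. The lowest summed count of a listed transcript was 101, so a missing row does not show absence from the tissue. The other 2 striatal markers, Ppp1r1b and Penk, summed to 159 to 531 CPM in ipsilateral, 176 to 533 in contralateral and 433 to 703 in sham libraries, with means of 336 ± 181 CPM in ipsilateral, 300.1 ± 160 in contralateral and 605 ± 149 in sham cortex. The striatal sums thus averaged lower in both hemispheres of the occluded animals than in sham cortex, with overlapping ranges, and their part in the comparisons with sham was not tested. In footprints from tissue of this kind, fewer cells of a type, less RNA per cell and less translation of that RNA cannot be told apart.

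Footprints are short, so each gene can be followed only as far as its sequence is its own. The first 30 coding bases are shown for the members that form pairs, because the results compare them: Mdh2 opens with bases that code for the start of a mitochondrial import signal, which cytosolic Mdh1 lacks, and Idh3a and Idh3b encode subunits of a single enzyme. They were read from the GENCODE vM21 transcripts of mm10, 5′ to 3′ on the coding strand, with the start codon in capitals.
Mdh1: ATGtctgaaccaatcagagtccttgtgact
Mdh2: ATGctgtccgctctcgcccgtcctgccggc
Idh3a: ATGgccgggtccgcgtgggtgtccaaggtc
Idh3b: ATGgcagcgctgagcaatgtccgctggctg
The full coding sequences of Mdh1 and Mdh2 were identical at 48.7% of aligned positions, and their longest exact stretch in common was 11 nt. For Idh3a and Idh3b these values were 56.3% and 12 nt. A footprint of 28 nt can therefore be told apart within each pair. Against all other annotated genes, Dlat, Pc, Idh3a and Idh3b shared 0 words of 28 nt. Cs shared 9.83% of the words of its transcript and 20.9% of those of its coding sequence, most of them with Csl, and Pdha1 shared 3.12% and 7.70% with 4930519F09Rik, so the counts of both are uncertain to that extent. Mdh2 shared 1.12% of its transcript words and 1.62% of its coding words, and Ogdh and Mdh1 at most 0.049% and 0.103%. Pdha1 also overlaps the oppositely oriented Map3k15 over 603 nt, and Idh3b overlaps the oppositely oriented Nop56 over 5 nt. Of the 9 genes, 7 carry a purine 3 bases before the start codon (77.8%), compared with 89.5% of 4139 genes in the table, and 3 carry a G directly after it (33.3%, compared with 51.9%).

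On mm10, Pdha1 (transcript ENSMUST00000033662) lies on chromosome X from 160122209 to 160138413, minus strand, and Dlat (ENSMUST00000034567) on chromosome 9 from 50634633 to 50659780, minus strand. Pc (ENSMUST00000068004) lies on chromosome 19 from 4510472 to 4621752, plus strand, and Cs (ENSMUST00000005826) on chromosome 10 from 128337734 to 128362479, plus strand. Idh3a (ENSMUST00000167866) lies on chromosome 9 from 54586511 to 54604661, plus strand, and Idh3b (ENSMUST00000028892) on chromosome 2 from 130279309 to 130284547, minus strand. Ogdh (ENSMUST00000003461) lies on chromosome 11 from 6291633 to 6356642, plus strand, Mdh1 (ENSMUST00000102874) on chromosome 11 from 21556787 to 21572193, minus strand, and Mdh2 (ENSMUST00000019323) on chromosome 5 from 135778480 to 135790391, plus strand. The genes are thus spread over 7 chromosomes.

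Per length of coding sequence, the 9 genes covered a wide range of levels. Mdh1 stood highest at 1815 ± 223 CPM per kb (SD over all 11 libraries), followed by Mdh2 at 508.5 ± 89.2 and Cs, which makes citrate, at 389 ± 42.1. Idh3a, the catalytic subunit of NAD-dependent isocitrate dehydrogenase, averaged 303 ± 145 CPM per kb. Lower on this scale came Pdha1, the alpha subunit of the E1 part of pyruvate dehydrogenase, at 204 ± 39.4 and Idh3b, a beta subunit of the isocitrate enzyme, at 169 ± 45.8. Ogdh, the E1 part of the 2-oxoglutarate dehydrogenase complex, averaged 106.5 ± 14.5 CPM per kb, Dlat, the E2 part of pyruvate dehydrogenase, 62.0 ± 19.7, and Pc, pyruvate carboxylase, 34.2 ± 13.2. Every library of Mdh1 lay above every library of Mdh2, the mean differing 3.57-fold. All other neighbours in this order overlapped in their ranges. The order was the same in ipsilateral and contralateral means; in sham means Idh3b (198 CPM per kb) stood just above Pdha1 (197.6). Among all 33 tested genes of the pathway, Mdh1 ranked first and Pc last by mean. Pdhx, at 34.4 ± 20.9 CPM per kb, was level with Pc, and its lowest library held 0.

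**Figure D1:**
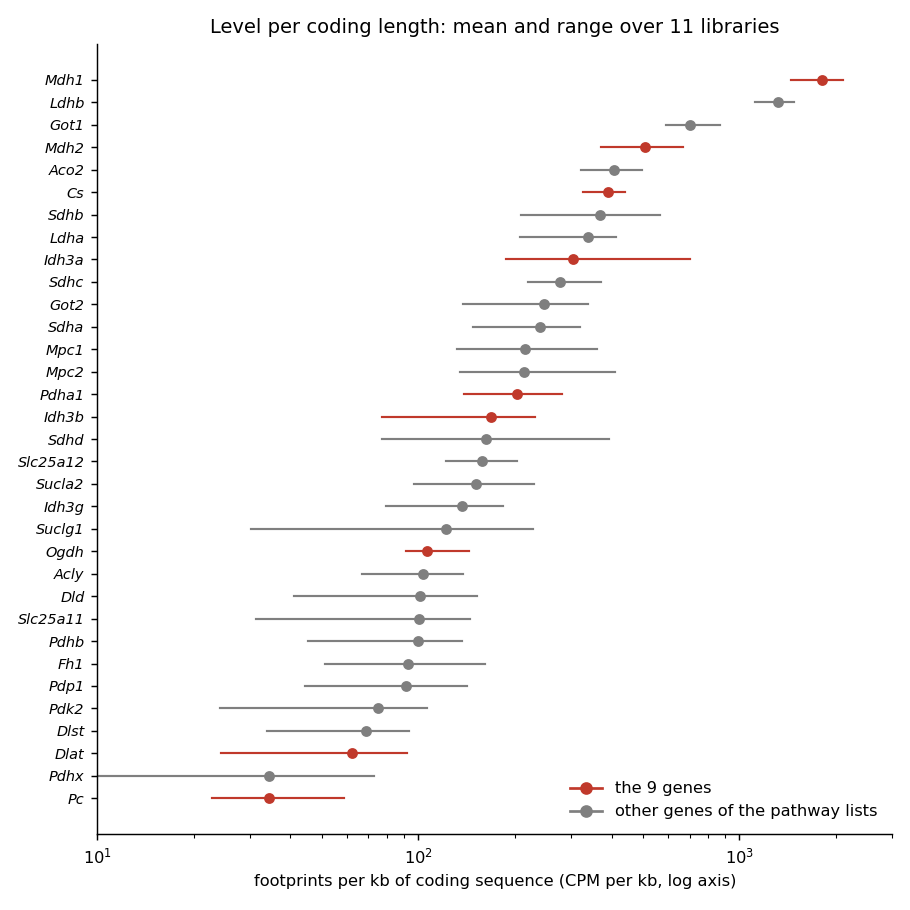
Footprints per kb of coding sequence (log axis) for the 9 genes (red) and 24 other tested genes of the pathway (grey); points are means over all 11 libraries and lines run from the lowest to the highest library, the line of Pdhx being cut at the axis because 1 library held 0 counts. By mean, Mdh1 lies highest at 1815 CPM per kb and Pc lowest at 34.2, level with Pdhx at 34.4.

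Ipsilateral cortex was first set beside sham cortex, the contrast of an ischaemic hemisphere with animals that had no occlusion. None of the 9 genes passed the edgeR quasi-likelihood test at a Benjamini-Hochberg adjusted p of 0.05 over all 3807 genes tested, in which 0.105% were called. All 9 had passed the filter on low counts. Log2 changes lay between -0.41 (Idh3b) and 0.87 (Idh3a), with a median of 0.09 beside 0.00 over all genes tested, and 5 of the 9 lay above 0, as did 50% of all genes. At an unadjusted p below 0.05 stood 1 of the 9, Idh3a, and 7.72% of all genes. The ipsilateral and sham libraries overlapped for each of the 9, whereas they were apart for 7.17% of all genes (3.86% higher and 3.31% lower in ipsilateral cortex).

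The comparison of ipsilateral with contralateral cortex sets the occluded hemisphere beside the opposite one. Again 0 of the 9 genes passed, and 0.315% of all genes were called (0.289% higher and 0.0263% lower in ipsilateral cortex). Log2 changes ran from -0.25 (Idh3b) to 0.44 (Pc), with a median of -0.03 beside -0.003 over all genes; 4 of the 9 lay above 0, beside 49.6% of all genes, and 5 below, beside 50.4%. No member had an unadjusted p below 0.05, and 7.88% of all genes did. The libraries overlapped for each of the 9, and were apart for 4.57% of all genes (2.13% higher and 2.44% lower in ipsilateral cortex).

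The comparison of contralateral with sham cortex sets the opposite hemisphere beside animals without an occlusion. No gene of the table was called by edgeR (0%), at an unadjusted p below 0.05 stood 5.59% of all genes, and DESeq2 called 2 and limma-voom 0. Log2 changes of the 9 ran from -0.16 (Idh3b) to 0.59 (Idh3a), with a median of 0.015 beside 0.013 over all genes. Of the 9, 5 lay above 0, beside 52% of all genes, and 4 below, beside 48%. In 1 of the 9, Idh3a, every contralateral library lay above every sham library, which was so for 3.81% of all genes; 7.7% were apart in either direction. The 3 comparisons share libraries, so their values are not independent of each other.

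Intervals show which sizes of change these libraries could not tell apart. For ipsilateral over sham cortex the 95% interval of the fold was narrowest for Mdh1 (0.855 to 1.32) and Cs (0.762 to 1.28). It was widest for Idh3a (1.13 to 2.94), Pc (0.809 to 2.07) and Dlat (0.61 to 1.56), and for Pdha1 it ran from 0.701 to 1.42. A p above the threshold therefore does not show that a gene stayed the same.

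**Figure D2:**
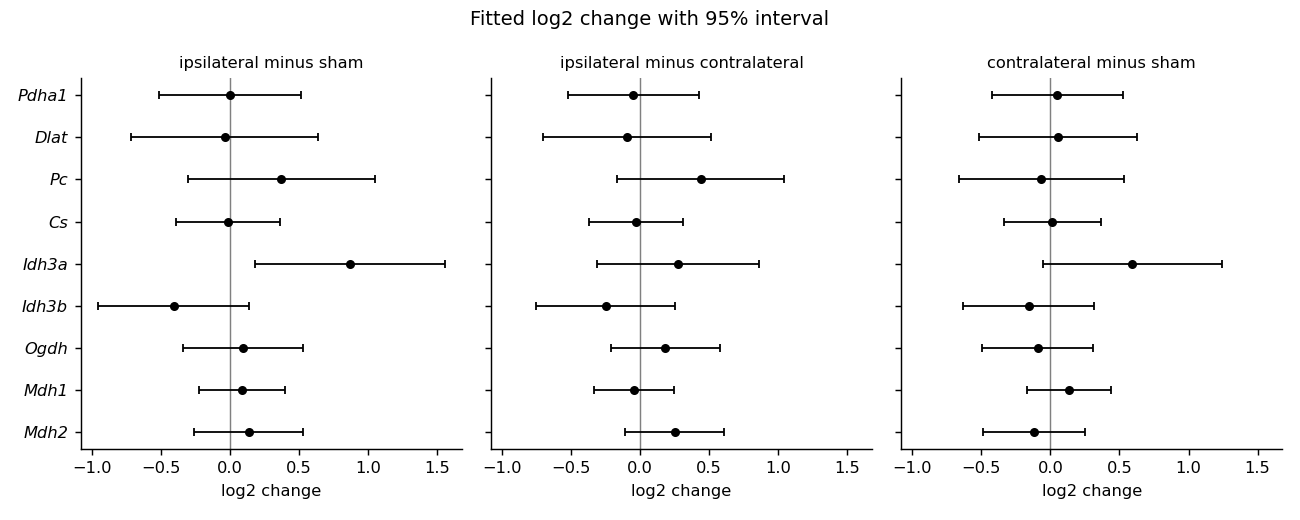
Fitted log2 change of the 9 genes (points) with 95% intervals (bars) in ipsilateral minus sham, ipsilateral minus contralateral and contralateral minus sham cortex. The interval of Idh3a in the first comparison, 0.18 to 1.55, is the only one of the 27 that lies off 0, and its adjusted p was 0.460.

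At the entry of pyruvate, Pdha1 gave 194, 295, 220.5 and 240 CPM in ipsilateral replicates 2, 4, 5 and 6, against 266, 329, 163 and 221 CPM in contralateral replicates 1, 4, 5 and 6 and 227, 250 and 216.5 CPM in sham replicates 1, 2 and 5. The sham values lay inside the range of both other groups. The log2 change of Pdha1 was -0.001 ± 0.25 (SE) in ipsilateral against sham and -0.05 ± 0.24 against contralateral cortex, and 0.05 ± 0.23 in contralateral against sham cortex (edgeR adjusted p = 1, 1 and 0.999).

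Dlat, whose product hands the acetyl group to coenzyme A, gave 89.7, 148, 122.5 and 137 CPM in the ipsilateral, 178, 68.9, 129 and 126 CPM in the contralateral and 153, 46.9 and 116 CPM in the sham libraries, in the same order of replicates. Its lowest value, in sham replicate 2, came from 3 counts, and the groups overlapped throughout. Dlat had a log2 change of -0.04 ± 0.34 in ipsilateral against sham, -0.10 ± 0.30 in ipsilateral against contralateral and 0.06 ± 0.28 in contralateral against sham cortex (edgeR adjusted p = 1, 0.991 and 0.999). Pdha1 took 63.6% to 68.4% of the Pdha1 and Dlat counts in ipsilateral libraries, 55.8% to 82.7% in contralateral and 59.8% to 84.2% in sham libraries, so the groups overlapped.

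Pc, the enzyme that refills the cycle with oxaloacetate and in brain is known chiefly from astrocytes, gave 97.2, 207, 208 and 94.3 CPM in ipsilateral replicates 2, 4, 5 and 6. It gave 82.0, 153, 105 and 80.7 CPM in contralateral replicates 1, 4, 5 and 6, and 110, 93.75 and 100.3 CPM in sham replicates 1, 2 and 5. Ipsilateral replicates 4 and 5 were the highest, whereas replicates 2 and 6 lay near the sham values. These levels rest on 7 and 17 counts in replicates 4 and 5, and on 13 and 11 in replicates 2 and 6. Pc had a log2 change of 0.37 ± 0.34 in ipsilateral against sham, 0.44 ± 0.30 in ipsilateral against contralateral and -0.07 ± 0.30 in contralateral against sham cortex (edgeR adjusted p = 0.857, 0.753 and 0.999). Without ipsilateral replicate 5 the change of Pc was 0.09 in ipsilateral against sham and 0.18 in ipsilateral against contralateral cortex. Within a day of surgery, the ipsilateral library exceeded the contralateral one by 0.43, 0.98 and 0.23 (log2) on days 4, 5 and 6, and the sham one by 0.05 and 1.05 on days 2 and 5. The 7 astrocyte markers, whose sums overlapped between the groups, are given above.

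Cs gave 531, 591, 563.5 and 489 CPM in the ipsilateral, 608, 459, 615 and 508 CPM in the contralateral and 548, 453 and 597 CPM in the sham libraries. All 11 values fell within a span of 453 to 615 CPM, and no group stood apart. The log2 change of Cs was -0.02 ± 0.19 in ipsilateral against sham, -0.03 ± 0.17 in ipsilateral against contralateral and 0.02 ± 0.17 in contralateral against sham cortex (edgeR adjusted p = 1, 0.994 and 0.999).

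Idh3a had the largest log2 change of the 9 in both comparisons with sham. It gave 269, 325, 245 and 772 CPM in ipsilateral replicates 2, 4, 5 and 6, against 362, 291, 282 and 429 CPM in contralateral replicates 1, 4, 5 and 6 and 247, 234 and 206 CPM in sham replicates 1, 2 and 5. The single value of 772 CPM, from 90 counts in ipsilateral replicate 6, lay far above the other ipsilateral libraries, and the contralateral library of the same day was the highest of its own group. The ipsilateral mean was 403 ± 248 CPM (SD, n = 4), the contralateral mean 341 ± 68.7 CPM (n = 4) and the sham mean 229 ± 20.9 CPM (n = 3). Idh3a had a log2 change of 0.87 ± 0.33 in ipsilateral against sham cortex (edgeR adjusted p = 0.460) and 0.59 ± 0.31 in contralateral against sham cortex (adjusted p = 0.908). Between ipsilateral and contralateral cortex it was 0.27 ± 0.28 (adjusted p = 0.888). Without ipsilateral replicate 6, the log2 change was 0.24 in ipsilateral against sham, 0.59 in contralateral against sham and -0.35 in ipsilateral against contralateral cortex. Without both libraries of day 6, a setting chosen after the values were seen, these 3 changes were 0.25, 0.43 and -0.18. With the day of surgery as a replicate block they were 0.61, 0.30 and 0.31. Over all alternatives the adjusted p of ipsilateral against sham cortex ran from 0.169, by edgeR without ipsilateral replicate 5, to 0.973, by edgeR without both libraries of day 6. Within days, the ipsilateral library differed from sham by 0.20 and 0.25 (log2) on days 2 and 5, and from the contralateral library by 0.16, -0.20 and 0.85 on days 4, 5 and 6. The contralateral library exceeded sham by 0.55 and 0.45 on days 1 and 5. No sham library of day 4 or day 6 was analysed here.

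Idh3b went the other way in sign, without passing the test. It gave 120, 88.6, 208 and 214 CPM in the ipsilateral, 246, 230, 180.0 and 167 CPM in the contralateral and 204, 266 and 216.5 CPM in the sham libraries. Ipsilateral replicates 2 and 4 were the lowest, on 16 and 3 counts, and replicates 5 and 6 lay among the sham values. The log2 change of Idh3b was -0.41 ± 0.27 in ipsilateral against sham, -0.25 ± 0.25 in ipsilateral against contralateral and -0.16 ± 0.23 in contralateral against sham cortex (edgeR adjusted p = 0.774, 0.909 and 0.979). Without ipsilateral replicate 2 the change of Idh3b was -0.22 in ipsilateral against sham and -0.06 in ipsilateral against contralateral cortex. On day 2 the ipsilateral library differed from sham by -1.15 (log2) and on day 5 by -0.06; from the contralateral library it differed by -1.38, 0.21 and 0.36 on days 4, 5 and 6.

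A share within a library does not depend on how libraries are scaled. Idh3a took 69.2%, 78.6%, 54.1% and 78.3% of the Idh3a and Idh3b counts in ipsilateral replicates 2, 4, 5 and 6. It took 59.6%, 55.9%, 61.0% and 72.0% in contralateral replicates 1, 4, 5 and 6, and 54.8%, 46.9% and 48.75% in sham replicates 1, 2 and 5. Every contralateral share, and each ipsilateral share but that of replicate 5, lay above all 3 sham shares. The shares rest on few counts: the exact 95% binomial interval ran from 49.2% to 95.3% in ipsilateral replicate 4, with 14 counts in all, and from 66.8% to 76.75% in contralateral replicate 6, with 332 counts. The nearest contralateral and sham shares were not apart beyond counting error. The interval ran from 43.32% to 67.92% for the lowest contralateral share, in replicate 4. For the highest sham share, in replicate 1, it ran from 45.23% to 64.08%. Such intervals cover counting error only. The shares use the same Idh3a counts as the levels above, so they are not independent of those levels. How often the shares of other gene pairs lie apart was not tested, and the shares are given as a description. The third subunit gene, Idh3g, averaged 178 ± 31.1 CPM in ipsilateral, 156 ± 26.4 in contralateral and 147 ± 48.9 in sham cortex, with log2 changes of 0.23 ± 0.27, 0.23 ± 0.24 and 0.01 ± 0.24 in the 3 comparisons.

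**Figure D3:**
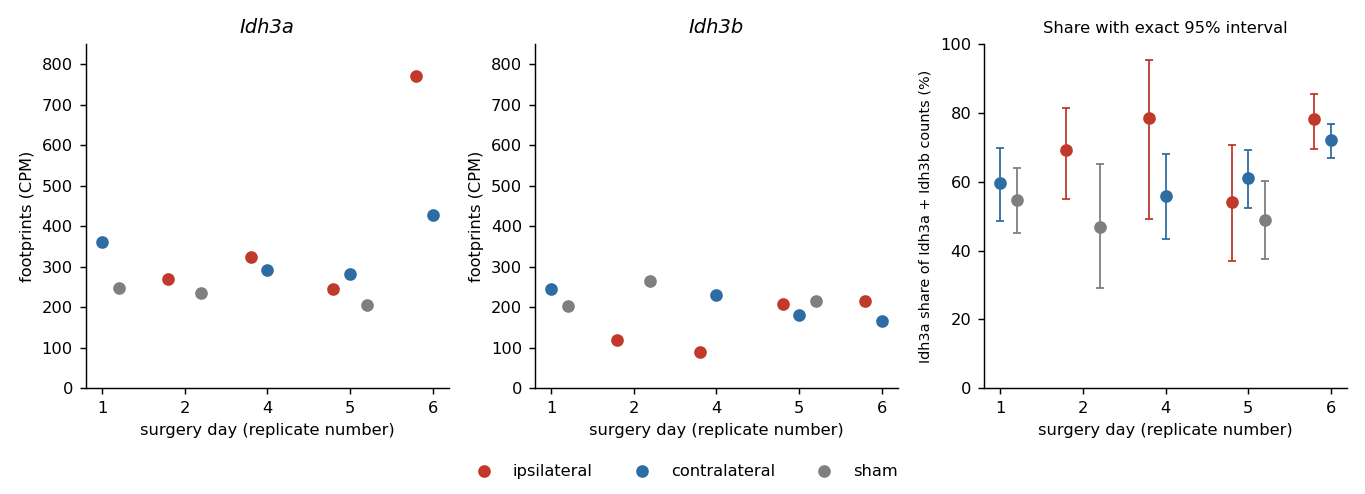
Idh3a and Idh3b footprints (CPM) and the Idh3a share of their summed counts (percent, bars are exact 95% binomial intervals) by day of surgery; each point is 1 library, red ipsilateral, blue contralateral, grey sham. Idh3a is highest on day 6, at 772 CPM ipsilaterally and 429 CPM contralaterally, and the share is lowest in the sham library of day 2, at 46.9%.

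Ogdh, which works on the substrate that glutamate is made from, gave 322, 295, 441 and 334 CPM in the ipsilateral, 321, 283, 316 and 314 CPM in the contralateral and 364, 281 and 322 CPM in the sham libraries. Ipsilateral replicate 5 was the highest, and the other 10 libraries lay between 281 and 364 CPM. Ogdh had a log2 change of 0.09 ± 0.22 in ipsilateral against sham, 0.18 ± 0.20 in ipsilateral against contralateral and -0.09 ± 0.20 in contralateral against sham cortex (edgeR adjusted p = 0.990, 0.898 and 0.999). Dlst, the E2 part of the same complex, averaged 108 ± 19.5 CPM in ipsilateral, 71.3 ± 17.6 in contralateral and 103 ± 11.4 in sham cortex. Its ipsilateral libraries lay above all contralateral ones, as for 2.13% of all genes tested. The contralateral libraries of Dlst lay below all sham ones, as for 3.89% of all genes tested. No comparison of Dlst passed (log2 change 0.55 ± 0.29 in ipsilateral against contralateral, edgeR adjusted p = 0.665). Its counts fell to 3 in ipsilateral replicate 4 and 6 in contralateral replicate 4.

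Mdh1 gave 1862, 1683, 2046 and 1724 CPM in the ipsilateral, 2050, 1455, 2102 and 1947 CPM in the contralateral and 1876, 1453 and 1811 CPM in the sham libraries. With 57 to 1085 counts per library it is the best measured of the 9, and its groups overlapped. Mdh1 had a log2 change of 0.09 ± 0.16 in ipsilateral against sham, -0.05 ± 0.14 in ipsilateral against contralateral and 0.13 ± 0.15 in contralateral against sham cortex (edgeR adjusted p = 0.949, 0.991 and 0.968).

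Mdh2, which regenerates oxaloacetate inside the mitochondrion, gave 508.5, 679, 465.5 and 635 CPM in the ipsilateral, 567, 375, 496 and 447 CPM in the contralateral and 560, 422 and 517.5 CPM in the sham libraries. Ipsilateral replicates 4 and 6 were the highest of all libraries, and the other 2 ipsilateral libraries lay among the rest. The log2 change of Mdh2 was 0.14 ± 0.19 in ipsilateral against sham, 0.25 ± 0.18 in ipsilateral against contralateral and -0.12 ± 0.18 in contralateral against sham cortex (edgeR adjusted p = 0.930, 0.761 and 0.985). Mdh1 took 71.3% to 81.5% of the counts of the malate dehydrogenase pair in ipsilateral, 78.3% to 81.3% in contralateral and 77.0% to 77.8% in sham libraries. All 4 contralateral shares thus lay above the 3 sham shares, and the ipsilateral shares covered both. The nearest shares were not apart beyond counting error. The exact binomial interval ran from 73.86% to 82.35% for the lowest contralateral share, in replicate 1. It ran from 73.6% to 81.57% for the highest sham share, in replicate 5. How often the shares of other gene pairs lie apart was not tested, so these shares are a description only.

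**Figure D4:**
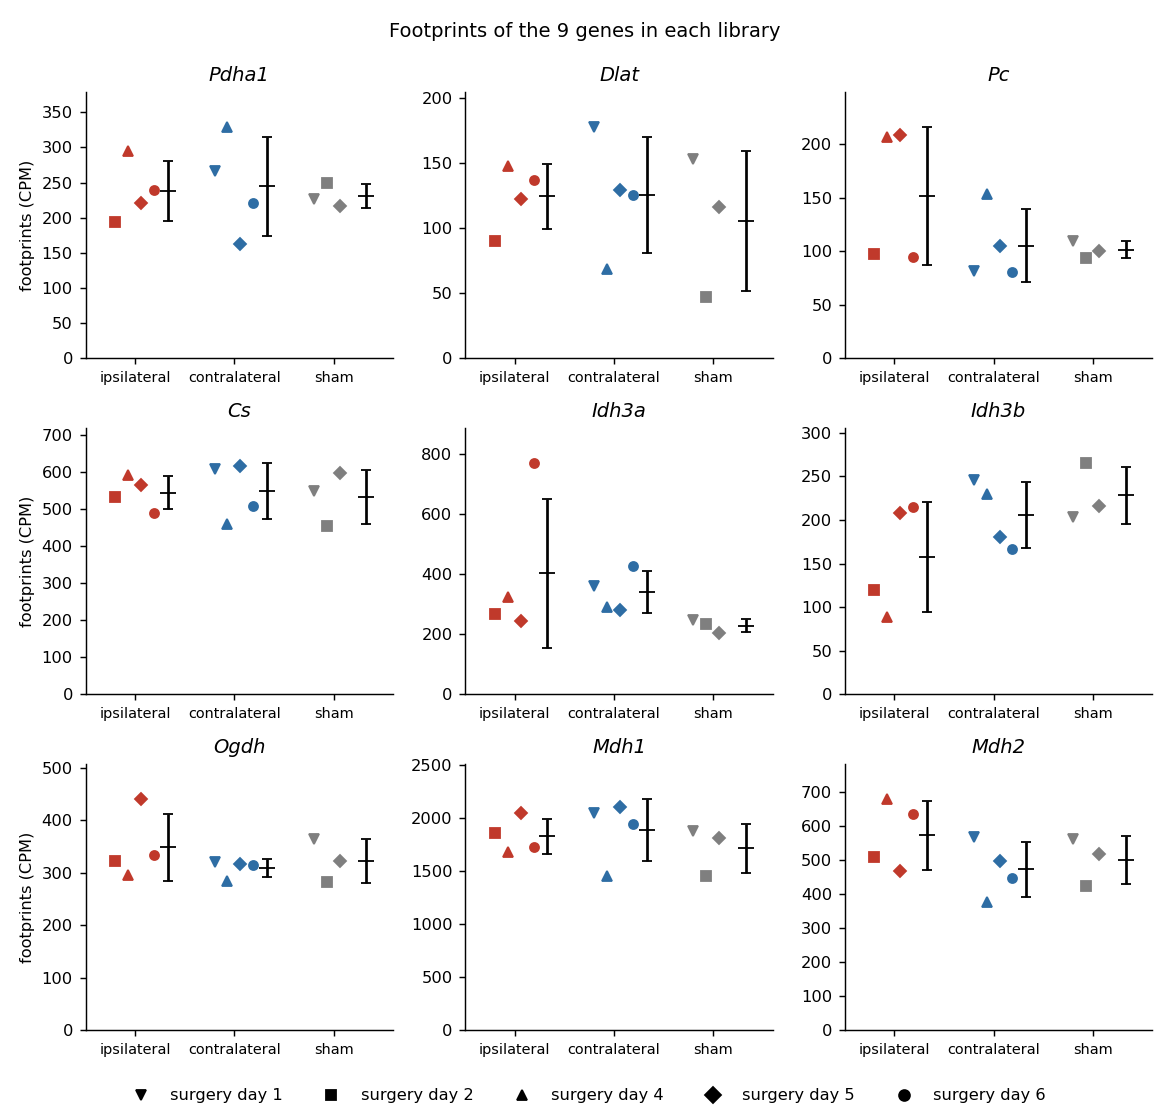
Footprints (CPM) of each gene in each library, by group; marker shapes give the day of surgery and black bars the mean ± SD of the group (n = 4 ipsilateral, 4 contralateral and 3 sham). The groups overlap in all 9 panels except contralateral and sham Idh3a, and ipsilateral replicate 6 stands out at 772 CPM for Idh3a.

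Taken as a sum, the 9 genes held 3994 to 4639 CPM in ipsilateral, 3644 to 4680 in contralateral and 3500 to 4289 in sham libraries, with means of 4366 ± 283, 4238 ± 436 and 3964 ± 412.5 CPM. Pairwise correlations of the 9 genes were mixed in sign and size. Over the 11 libraries, Pearson's r of log2 CPM between the 36 pairs of members ran from -0.66 (Pdha1 and Mdh1) to 0.76 (Cs and Mdh1), with a median of 0.06; Dlat with Cs and Dlat with Mdh1 both gave 0.74. These correlations are a description, since the points share library depth and groups. They cannot show whether the genes vary together, because counting error pulls r towards 0 and shared depth and groups can also shift it. Dlat had only 3 counts in sham replicate 2, and Idh3b only 3 in ipsilateral replicate 4. The mean profile of the 9 was also compared with 1118 other genes with a mean of at least 200 CPM. Most like it were Cdk17 (r = 0.89), Son (0.87), Ppp1r9a (0.82), Camk4 (0.80) and Sin3b (0.74), over the same 11 libraries and with the same limits. These are the extremes of 1118 values, from genes with means of 213 to 286 CPM, near the cut. Whether such values exceed chance was not tested.

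The other genes of pyruvate handling and the cycle were described from lists chosen by function. Of 38 listed genes 27 were in the table and 24 were tested, and 0 passed in either direction in any of the 3 comparisons. In ipsilateral against sham cortex 10 of the 24 lay above 0 (median log2 change -0.08), in ipsilateral against contralateral cortex 14 (0.03) and in contralateral against sham cortex 8 (-0.09). Over all genes tested, in the same order, 50%, 49.6% and 52% lay above 0, with medians of 0.00, -0.003 and 0.013. Of all genes tested 0.105%, 0.315% and 0% were called. The 11 without a row included Pdk1, Pdk3 and Pdk4, kinases that switch pyruvate dehydrogenase off, and Idh2, the NADP-dependent mitochondrial isocitrate dehydrogenase. No listed transcript had fewer than 101 counts over all libraries, so a missing row does not show that a gene was untranslated.

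Pdk2, a kinase that inhibits pyruvate dehydrogenase, had the lowest log2 change of the pathway lists in ipsilateral against contralateral cortex. It averaged 56.4 ± 19.1 CPM in ipsilateral, 125 ± 6.08 in contralateral and 94.3 ± 27.6 in sham cortex. Every ipsilateral library lay below every contralateral one (log2 change -0.997 ± 0.31, edgeR adjusted p = 0.228), which was so for 2.44% of all genes tested. The ipsilateral values of Pdk2 rest on only 10, 1, 5 and 7 counts in replicates 2, 4, 5 and 6. Against sham cortex the ipsilateral change of Pdk2 was -0.71 ± 0.35 (edgeR adjusted p = 0.645). Every contralateral library lay above every sham library (log2 change 0.29 ± 0.26, edgeR adjusted p = 0.953), as for 3.81% of all genes tested.

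Sdhd, a membrane anchor of succinate dehydrogenase, had the lowest log2 change in ipsilateral against sham cortex. It averaged 50.2 ± 11.3 CPM in ipsilateral, 70.5 ± 13.04 in contralateral and 124 ± 56.8 in sham cortex (log2 change in ipsilateral against sham -1.10 ± 0.40, edgeR adjusted p = 0.401). The ipsilateral libraries lay below all sham libraries, as for 3.31% of all genes tested. Their values rest on only 6, 2, 3 and 7 counts in replicates 2, 4, 5 and 6. Sham replicate 2 gave 187.5 CPM from 12 counts, and sham replicates 1 and 5 gave 78.3 and 105.6 CPM. In contralateral against sham cortex the log2 change of Sdhd was -0.68 ± 0.31 (edgeR adjusted p = 0.856). The partners of Sdhd, named after their values were seen, lay nearer 0 in ipsilateral against sham cortex. Sdha, the catalytic flavoprotein, differed by 0.01 ± 0.21, Sdhb by -0.08 ± 0.25 and Sdhc by -0.19 ± 0.29. Fh1, fumarase, had the highest log2 change of the lists in ipsilateral against sham cortex, 0.48 ± 0.30, at 173 ± 54.1 CPM in ipsilateral and 117.5 ± 34.1 in sham cortex (adjusted p = 0.747), and 0.52 ± 0.27 against contralateral cortex. Dld, the E3 part that the pyruvate and 2-oxoglutarate complexes share, came next with 0.43 ± 0.28, at 180.1 ± 41.7 CPM in ipsilateral and 122 ± 51.9 CPM in sham cortex.

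The remaining partners of the pyruvate dehydrogenase complex were thinly covered. Pdhb, the beta subunit of E1, differed by -0.10 ± 0.35 in ipsilateral against sham and by -0.49 ± 0.30 against contralateral cortex. Pdhx, which binds E3 into the complex, had 0 counts in ipsilateral replicate 4 and 2 in replicate 5, and differed by -0.45 ± 0.54 in ipsilateral against sham cortex.

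Of the malate-aspartate shuttle beyond Mdh1 and Mdh2, 4 genes were tested and 0 passed. Got1, the cytosolic aspartate aminotransferase, averaged 909 ± 127 CPM in ipsilateral, 770 ± 30.1 in contralateral and 962 ± 101 in sham cortex. Every contralateral library of Got1 lay below every sham library (log2 change -0.30 ± 0.16, adjusted p = 0.880), which was so for 3.89% of all genes tested. Got2, its mitochondrial counterpart, differed by -0.28 ± 0.23 in ipsilateral against sham cortex. Slc25a11, the 2-oxoglutarate carrier, differed by -0.40 ± 0.35, and Slc25a12, an aspartate-glutamate carrier, by 0.03 ± 0.23. Every ipsilateral library of Slc25a11 lay below every sham library, as for 3.31% of all genes tested. Ipsilateral replicate 4 held only 1 count of Slc25a11.

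**Figure D5:**
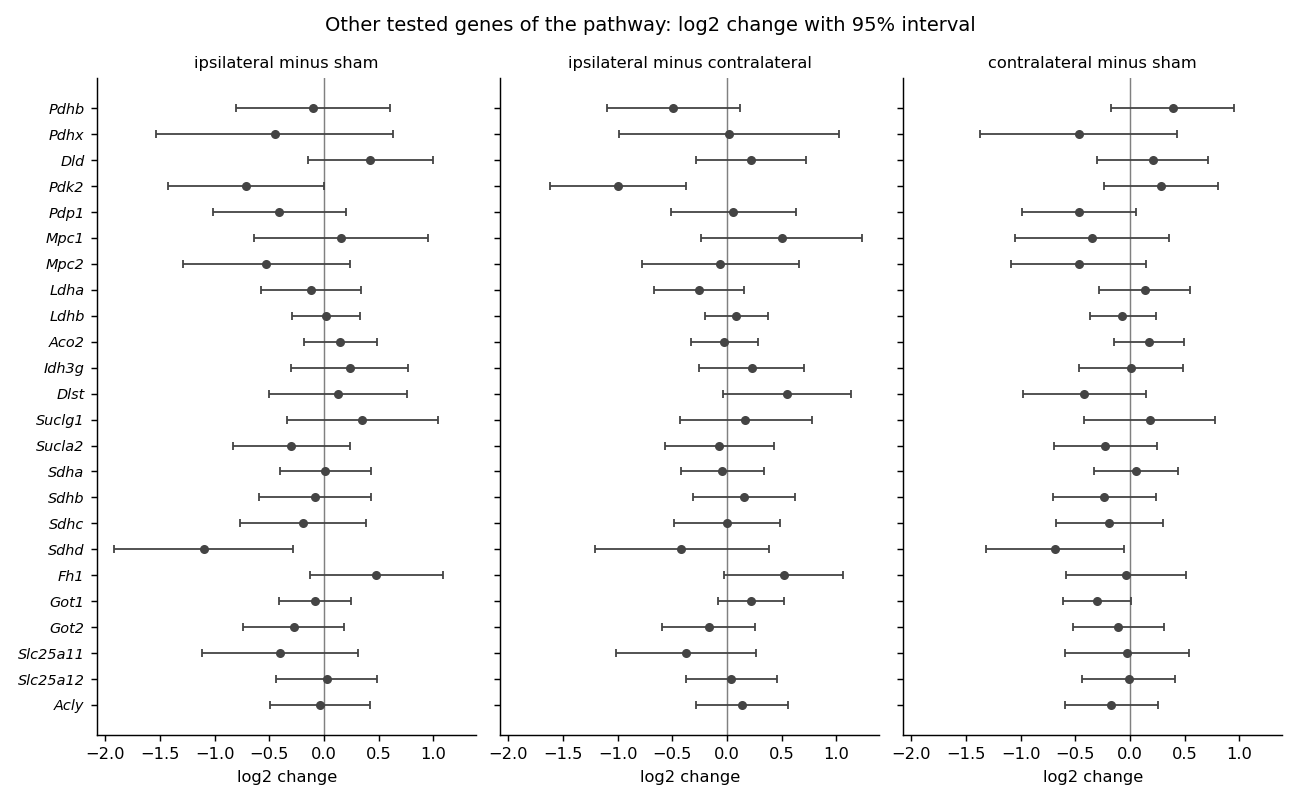
Fitted log2 change (points) with 95% intervals (bars) of the 24 other tested genes of the pathway in the 3 comparisons. The points farthest from 0 are Sdhd in ipsilateral minus sham, at -1.10, and Pdk2 in ipsilateral minus contralateral cortex, at -0.997.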

How the data were processed

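Per the labels' protocols and the series' design text, tissue was digested with micrococcal nuclease, protected RNA of 30 to 50 nt was gel-purified, and libraries were read as single ends of 69 bp. The submitters' processing notes list Bowtie2, edgeR and mm10; for the counter, annotation release, strand setting and filters, the step was not given in the sources used here. Raw counts per Ensembl transcript are the values deposited by the authors, with no normalization. Of 9784 transcripts, 9736 matched GENCODE vM21, and the other 48 held 0.306% of counts and were left out. For each gene the transcript with most counts over all libraries was kept. Tests used edgeR 4.0.16 under R 4.3.3 (filterByExpr with a minimum count of 10, TMM scaling, robust quasi-likelihood fit of all 11 libraries without a block), which kept 3807 and removed 531 genes; the code was checked on simulated data. Intervals come from the quasi-likelihood SE; edgeR raises a p to its Poisson counterpart where that is larger. Levels are CPM after TMM scaling, mean ± SD, and per kb of annotated coding sequence between genes, although counts may include untranslated parts. The replicate number names a day of surgery, per the series' design text, so same-numbered libraries are paired by day; their deviations from group means correlated at a median r of 0.134 over 7 pairs (-0.137 to 0.225), compared with -0.0294 over 33 others (-0.256 to 0.262). No 2 libraries of a group were copies (chi-square per degree of freedom 1.42 to 2.88). Whether same-numbered ipsilateral and contralateral libraries come from 1 animal is not stated. Leaving out both libraries of day 6 was added after the values were seen. Alternatives were DESeq2 1.42.0, limma 3.58.1 (voom), other scalings, no filter, summed transcripts, a replicate block and left-out libraries. Genes named beyond the 9 were those past the threshold (0), subunit partners, shuttle genes, the 2 highest and 2 lowest log2 changes of the pathway lists in the comparisons with ipsilateral cortex, and the 5 most similar profiles. The members and lists were chosen with earlier results of these data known.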

Additional observations from a re-analysis of the deposited data

Results flagged for a closer look

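In 26 groups of 4 libraries (levels, shares and the sum of the 9 genes), 1 library lay farther from the others than Dixon's 95% limit allows: ipsilateral replicate 6 for Idh3a, at 772 CPM. Its gap to the next library was 0.849 of the group's range, beside a limit of 0.829. Chance gives about 1 such library in 20 groups. The contralateral library of the same day of surgery had the highest contralateral Idh3a level, 429 CPM.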

How the results depend on the processing

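Under the 21 alternatives, 0 of the 9 genes passed in any comparison, although DESeq2 gave no adjusted p for Dlat and Pc in ipsilateral against sham cortex, so these were not judged there. Of 567 refitted log2 changes of members, 508 kept their sign and 59 changed it. In ipsilateral against sham cortex, sign changes gave Pdha1 0.007 (RLE scaling), 0.003 (no filter), 0.008 (DESeq2) and 0.006 (all transcripts summed); Dlat 0.037 (DESeq2) and 0.006 (summed); Cs 0.001 (summed) and 0.035 (without both libraries of day 6); and Mdh2 -0.006 (without the 2 shallowest libraries). With the replicate number as a block, Dlat gave 0.439 and Cs 0.113 in that comparison, Pdha1 0.049, Dlat 0.245, Cs 0.024 and Mdh1 0.013 in ipsilateral against contralateral cortex, and Pdha1 -0.122 in contralateral against sham cortex, where Idh3a kept its sign at 0.302; the block changed no member's call, and 3, 9 and 0 genes of the table passed with it, compared with 4, 12 and 0. In ipsilateral against contralateral cortex, Pdha1 gave 0.003 (limma-voom), and without both libraries of day 6 Idh3a gave -0.182 and Mdh1 0.008. In contralateral against sham cortex, limma-voom gave Pdha1 -0.019, Dlat -0.023 and Cs -0.007; Cs was -0.008 by library totals only and -0.001 with no filter; without the 2 shallowest libraries Dlat was -0.111 and Cs -0.066; and Pc was 0.102 without both libraries of day 6.

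Leaving out 1 library, changes in ipsilateral against sham cortex ran from -0.065 to 0.088 for Pdha1, -0.207 to 0.303 for Dlat, -0.101 to 0.069 for Cs, -0.04 to 0.194 for Ogdh and -0.015 to 0.153 for Mdh1; without a change of sign they ran from 0.094 to 0.56 for Pc and -0.603 to -0.224 for Idh3b. In ipsilateral against contralateral cortex they ran from -0.211 to 0.104 for Pdha1, -0.212 to 0.074 for Dlat, -0.089 to 0.036 for Cs, -0.346 to 0.472 for Idh3a and -0.14 to 0.013 for Mdh1; without a change of sign they ran from 0.18 to 0.633 for Pc and -0.431 to -0.062 for Idh3b. In contralateral against sham cortex they ran from -0.107 to 0.204 for Pdha1, -0.113 to 0.397 for Dlat, -0.227 to 0.093 for Pc, -0.069 to 0.087 for Cs and -0.16 to 0.012 for Ogdh. The cause was not tested.

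Over all genes, the count called in ipsilateral against sham cortex was 4, 10 by DESeq2 and 0 to 22 leaving out 1 library (0 without sham replicate 1, 2 without sham replicate 5, 22 without ipsilateral replicate 5). In ipsilateral against contralateral cortex it was 12, 7 with all transcripts summed or without the 2 shallowest libraries, 3 without both libraries of day 6, and 3 to 26 leaving out 1 library (5 and 4 without contralateral replicates 1 and 6, 3 and 26 without ipsilateral replicates 2 and 5). In contralateral against sham cortex it was 0, 2 by DESeq2, and 0 to 3 leaving out 1 library (3 without sham replicate 5, 1 without ipsilateral replicate 6). Depth limits single values: Idh3b had 3 counts in ipsilateral replicate 4 and Dlat 3 in sham replicate 2.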
